A study of Arabidopsis thaliana with 6 samples.

Results

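The comparison of nrpe1-12 seedlings with Col-0 seedlings covered 17542 of the 32594 loci in the deposited expression table, and 4 of the 6 libraries of the study. A locus entered it with at least 1 FPKM (fragments per kilobase, relative to all mapped fragments) in at least 2 of the 4 libraries of both genotypes. Col-0 is the wild type of Arabidopsis thaliana, and nrpe1-12 is mutant in NRPE1, which encodes the catalytic subunit of RNA polymerase V. Seedlings of both genotypes were 14 days old, had been grown on MS plates without treatment, and gave total RNA from which ribosomal RNA had been removed. The other mutant of the study, apc8-1, of the same age and handling, with a mutant allele of a subunit of the anaphase promoting complex, also has 2 libraries. These libraries served here to estimate the spread between libraries and to show where nrpe1-12 differed from another mutant.

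RNA polymerase V is a plant-specific relative of RNA polymerase II. It transcribes noncoding scaffold RNAs at transposons and repeats, and small interfering RNAs bound to AGO4 pair with them and bring in the methyltransferase DRM2. This RNA-directed DNA methylation (RdDM) keeps many transposons and some genes near them silent, and the demethylase ROS1 works against it.

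Between 17072 and 17301 loci reached 1 FPKM in a Col-0 or nrpe1-12 library, and 1 FPKM stood for an estimated 14.1 to 19.1 fragments per kilobase. Chloroplast transcripts, with the gene rbcL left out, held 24.1 and 24.4% of the FPKM in Col-0 and 28.6 and 29.0% in nrpe1-12. The 11 root marker genes summed to 29.7 and 31.3 FPKM in Col-0 and to 20.06 and 24.4 in nrpe1-12, so nrpe1-12 was higher in the first measure and lower in the second without overlap. Of all tested loci 64.6% did not overlap between the genotypes, 31.4% with nrpe1-12 higher and 33.2% with it lower. Root markers and nuclear photosynthesis genes were both present in each library, as the label of whole seedlings implies, although WOX5 was listed at 0 in 3 of these 4 libraries and PLT1 and IRT1 stayed below 1 FPKM. Levels are given for each library in FPKM, changes as differences of log2(FPKM + 1), and called loci passed limma at a Benjamini-Hochberg adjusted p below 0.05 over all 17542 loci. The log2 scale with 1 added understates the changes of loci with low levels. A locus that reached 1 FPKM in 1 genotype alone was tested because it was high there and had to differ, so such loci are described without a p-value and list counts are also given without them.

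In nrpe1-12 seedlings 2418 loci were called higher than in Col-0 and 2293 lower. These are 13.8% and 13.1% of the loci tested, together 26.9%. Most changes were small: 311 loci rose and 335 fell at least 2-fold in FPKM + 1, which is 1.77% and 1.91% of the loci tested. With 0.1 added to FPKM in place of 1 these numbers were 417 and 556. Without 1 of the 4 libraries the number of calls fell from 4711 to between 2867 (without Col-0 replicate 1) and 3186 (without nrpe1-12 library b). When libraries were rescaled without organelle and ribosomal RNA genes, the median of all loci moved from -0.01 to -0.12 and the calls became 1704 higher and 3762 lower, so small shifts are best read against that median.

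NRPE1 itself (AT2G40030, chromosome 2, bases 16714494 to 16723631, TAIR10) had 2.71 and 2.91 FPKM in Col-0 against 6.46 and 5.94 in nrpe1-12. Both nrpe1-12 libraries stood above both Col-0 libraries (log2 fold change 0.92, SE 0.12, adjusted p = 9.14e-04). No source used here gives the kind of lesion in nrpe1-12, and the transcript level therefore does not check the label. Of 8 tested subunits of RNA polymerases IV and V, 2 were called higher and none lower, beside 13.8% and 13.1% of all loci. One was NRPE1 itself, and the other was NRPD7, a small subunit that reached 1 FPKM only in nrpe1-12, at 0.862 and 0.867 FPKM in Col-0 against 1.96 and 1.78 in nrpe1-12, and 5 of 15 alternative settings lost that call.

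Of 5 tested genes of siRNA production none was called higher and 1 lower, CLSY1, a chromatin remodeller whose call was lost in 9 of 15 alternatives, and of 13 tested genes of targeting and methylation 2 were called higher and none lower, against 13.8% and 13.1% of all loci. DMS3, which acts with RNA polymerase V in loading it onto chromatin, had 2.90 and 2.68 FPKM in Col-0 against 2.97 and 2.71 in nrpe1-12 (log2 fold change 0.02, SE 0.12, adjusted p = 0.928), and AGO4, the siRNA-binding effector, had 13.6 and 11.2 FPKM in Col-0 against 12.9 and 11.6 in nrpe1-12 (adjusted p = 0.96). The levels of both genotypes overlapped for each of these genes. MORC6, an ATPase of gene silencing, had 1.123 and 1.37 FPKM in Col-0 against 2.72 and 2.45 in nrpe1-12 and rose (log2 fold change 0.67, SE 0.14, adjusted p = 0.00875), but its adjusted p was 0.0622 without Col-0 replicate 1 and 0.0554 without nrpe1-12 library a. Of 13 tested genes that maintain DNA methylation, among them MET1, DDM1 and CMT3, 1 was called higher and none lower, and the median log2 fold change of the list was 0.05, or -0.04 after rescaling without organelle and ribosomal RNA genes.

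The largest change among genes of DNA methylation was a drop of ROS1 transcript. ROS1 (AT2G36490, chromosome 2, bases 15307950 to 15314807), the main DNA demethylase of vegetative tissue, had 15.6 and 14.0 FPKM in Col-0 against 1.103 and 0.876 in nrpe1-12. Its transcript is known to fall in RdDM mutants. Both nrpe1-12 libraries were far below both Col-0 libraries (log2 fold change -2.99, SE 0.11, adjusted p = 3.30e-06), while the 2 apc8-1 libraries had 18.8 and 18.6 FPKM. The direct contrast of nrpe1-12 with apc8-1 gave -3.31 (adjusted p = 1.68e-06). The related demethylase DME had 12.2 and 12.4 FPKM in Col-0 against 12.8 and 12.4 in nrpe1-12 and was not called (adjusted p = 0.842). DML2, another member of the family, had 8.98 and 9.37 FPKM in Col-0 against 11.8 and 12.3 in nrpe1-12 (log2 fold change 0.36, SE 0.09, adjusted p = 0.0159), and 5 of 15 alternatives lost that call, those without any 1 of the 4 libraries among them. Of the 12 demethylation genes tested, 2 were called higher and 1, ROS1, lower, beside 13.8% and 13.1% of all loci. DML3, the other gene called higher, lost its call in 7 of 15 alternatives. After rescaling without organelle and ribosomal RNA genes none of the 12 was higher.

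Of 8 genes that DNA methylation is known to silence, only SDC, RMG1 and BNS reached the level needed for a test. SDC, an F-box gene kept silent by methylation of repeats in its promoter, had 1.48 and 0 FPKM in Col-0 against 16.1 and 4.56 in nrpe1-12, and was at 0 in apc8-1. The 2 nrpe1-12 libraries were both above Col-0 but far apart (log2 fold change 2.63, SE 0.54, adjusted p = 0.00822), and without Col-0 replicate 2 or nrpe1-12 library a the adjusted p was 0.0519 or 0.0518. FWA, another repeat-silenced gene, stayed at or below 0.0312 FPKM in every library. QQS, a gene with methylated repeats upstream, reached 0.582 and 0.588 FPKM in Col-0 and was listed at 0 in both nrpe1-12 libraries. RMG1, an immune receptor gene with a methylated promoter, had 1.45 and 1.65 FPKM in Col-0 against 0.740 and 1.098 in nrpe1-12. BNS, which encodes a small subunit of the anaphase promoting complex, had 1.78 and 2.07 FPKM in Col-0 against 1.14 and 1.40 in nrpe1-12. Both genes were lower in nrpe1-12 without overlap but were not called (adjusted p = 0.108 and 0.115).

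Single transposable element genes almost without transcript in Col-0 had substantial transcript in nrpe1-12. Transposable element genes encode proteins or relics of mobile DNA. AT5G27845 (chromosome 5, bases 9868348 to 9872594) had 0.0130 and 0.0172 FPKM in Col-0 against 36.2 and 36.4 in nrpe1-12, and 0.0779 and 0.0607 in apc8-1. Its log2 fold change of 5.20 (SE 0.13) was the largest among all called loci that did not overlap between the genotypes. AT4G04293 had 0.862 and 0.233 FPKM in Col-0 against 12.3 and 10.9 in nrpe1-12 (log2 fold change 3.06). AT5G26590 was listed at 0 in all Col-0 and apc8-1 libraries and had 4.49 and 3.73 FPKM in nrpe1-12. AT2G13860 went from 0.0146 and 0.0193 to 1.35 and 1.36 FPKM and AT4G08013 from 0.00476 and 0.0194 to 1.91 and 1.99 FPKM. All of these loci reached 1 FPKM in no library but those of nrpe1-12. AT5G35935, which also reached 1 FPKM in nrpe1-12 but not in Col-0, differed from them, since it had 3.43 and 2.93 FPKM in apc8-1, between 0.109 and 0.452 in Col-0 and 8.18 and 9.03 in nrpe1-12.

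**Figure D1:**
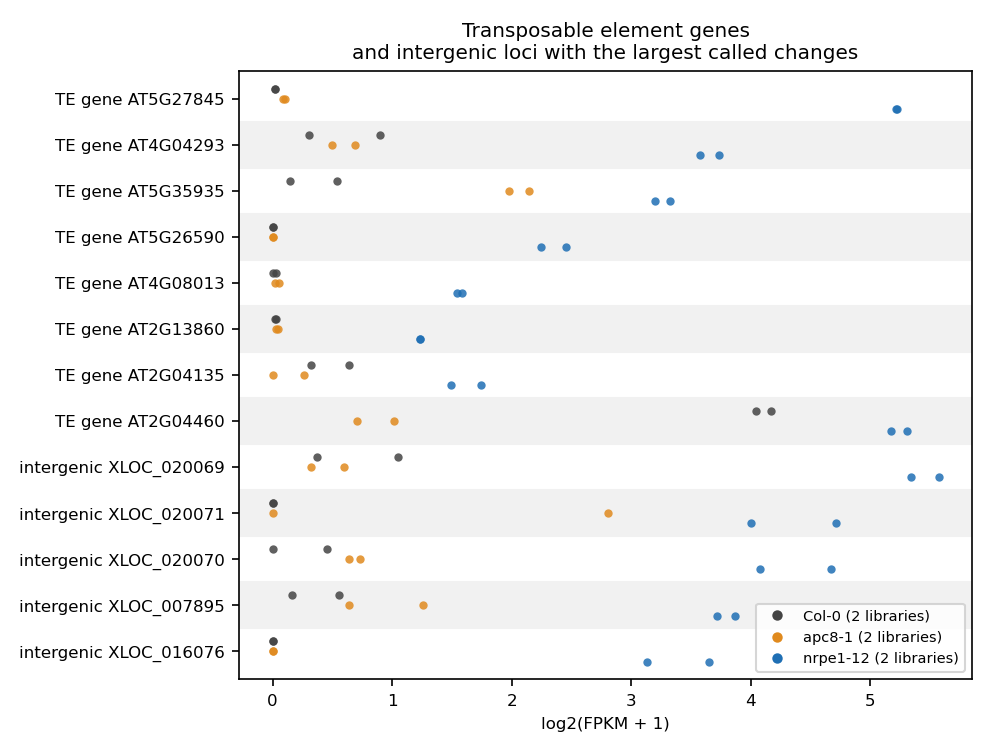
Level of 13 loci in each library, as log2(FPKM + 1) on the x axis, for the 8 transposable element (TE) genes and 5 intergenic loci with the largest called changes between nrpe1-12 and Col-0. Each point is 1 library, and both nrpe1-12 points lie to the right of both Col-0 points in each locus; AT2G04460 alone had clear signal in Col-0.

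The table lists 3850 transposable element genes and 80 were tested, of which 18 were called higher and 3 lower, with a median log2 fold change of 0.17 against -0.01 over all loci. After rescaling without organelle and ribosomal RNA genes 15 of 83 tested were higher and 8 lower. Of the 80, 9 reached 1 FPKM only in nrpe1-12 and not in Col-0, and all 9 were among those called higher. Among the 69 that reached it in both genotypes, 9 were higher (13.04%) and 2 lower (2.90%), beside 13.5% and 12.3% of all 17026 loci that did so. The summed level of all transposable element genes was 461 and 480 FPKM in Col-0, 603 and 598 in nrpe1-12 and 500.1 and 566 in apc8-1. Without nrpe1-12 library b 11 of them were called higher in place of 18. Of 122 unannotated intergenic loci 92 were tested, with 24 higher and 8 lower, and among the 71 that reached 1 FPKM in both genotypes the numbers were 8 and 5. Of 74 tested pseudogenes 19 were higher and 4 lower, or 13 and 4 of the 61 that reached 1 FPKM in both genotypes. Some of those higher are copies of mitochondrial genes. AT2G07664 is annotated as a pseudogene of ATMG01040 and AT2G07711 as similar to NADH dehydrogenase subunit 5. Fragments of such copies may be shared with mitochondrial genes, of which 12 of 57 tested were higher and none lower. Their part in the pseudogene counts was not tested. Without 1 Col-0 or nrpe1-12 library 9 or 10 pseudogenes were called higher, and 12 after the rescaling.

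**Figure D2:**
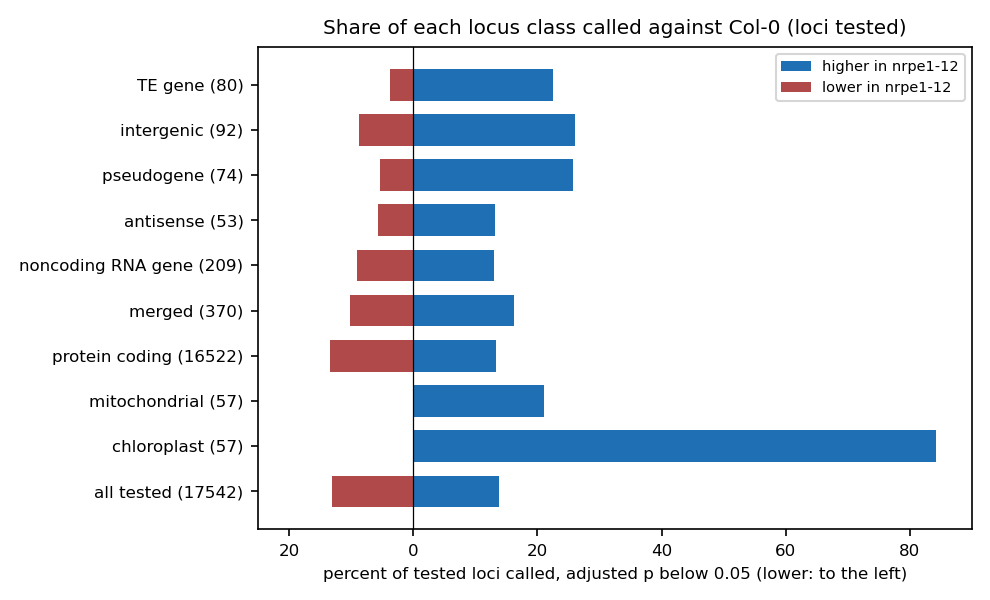
Percent of the tested loci of each class that were called higher (blue, to the right) or lower (red, to the left) in nrpe1-12 than in Col-0, with the number of tested loci in parentheses. Of the 57 chloroplast genes 48 were called higher and none lower, whereas 13.8% of all loci were higher and 13.1% lower.

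Several of the strongest increases sat side by side on a chromosome, although most increases did not. Of 310 nuclear loci called at least 2-fold higher, 49 (15.8%) had another such locus within 5000 bases. Among loci called at least 2-fold lower the number was 29 of 334 (8.68%). Both numbers include loci listed with the same coordinates, such as SAUR27 and SAUR29 (chromosome 3, bases 916356 to 1181064), which are not separate places. The share among all tested loci was not determined, so these numbers do not show whether changed loci cluster. On chromosome 5 the element AT5G27845 ended 271 bases before AT5G27850 (chromosome 5, bases 9872866 to 9876482), a gene of the ribosomal protein L18e/L15 family on the same strand. AT5G27850 had 67.9 and 65.0 FPKM in Col-0 against 342 and 323 in nrpe1-12, so it rose as well from a level that was not low (log2 fold change 2.31, SE 0.08, adjusted p = 1.99e-06). On chromosome 3 the intergenic locus XLOC_020069 (chromosome 3, bases 11470442 to 11470911) had 1.07 and 0.291 FPKM in Col-0 against 39.5 and 46.6 in nrpe1-12. It lay 220 bases from AT3G29639 (11471132 to 11481270), which is listed as a pair of loci with the same coordinates. Their levels were 0.102 and 0.210 FPKM in Col-0 against 31.4 and 34.8 in nrpe1-12 for one and 0.0662 and 0.228 FPKM in Col-0 against 5.54 and 6.38 in nrpe1-12 for the other, and fragments of such a pair cannot be assigned with certainty. On the far side of AT3G29639, at a distance of 619 bases, XLOC_020070 had 0 and 0.375 FPKM in Col-0 against 15.9 and 24.5 in nrpe1-12. The log2 fold changes of these 4 loci were 2.60 to 4.88. XLOC_020069 alone among them reached 1 FPKM in a Col-0 library (adjusted p = 9.92e-06).

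On chromosome 2 the element AT2G04135 (chromosome 2, bases 1391930 to 1392938) had 0.248 and 0.554 FPKM in Col-0 against 2.35 and 1.82 in nrpe1-12, and the intergenic locus XLOC_013527, 462 bases away, had 7.44 and 9.26 FPKM in Col-0 against 32.7 and 33.5 in nrpe1-12. Both were higher in nrpe1-12; the intergenic locus had signal in both genotypes (adjusted p = 0.00344). Further along the same chromosome the intergenic loci XLOC_013533, XLOC_013534 and XLOC_013535 (17485331 to 17488840) were listed at 0 in all Col-0 and apc8-1 libraries. In nrpe1-12 XLOC_013533 had 1.88 and 1.08 FPKM, XLOC_013534 had 1.47 and 5.04 and XLOC_013535 had 1.36 and 1.64. These neighbouring loci were picked as examples after their values had been seen.

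In total 57 loci were below 0.5 FPKM in both Col-0 libraries and at or above 1 FPKM in both nrpe1-12 libraries, which included 31 protein-coding genes, 13 intergenic loci and 6 transposable element genes. In 24 of the 57 both apc8-1 libraries were below 0.5 FPKM too. AT1G33840, a protein-coding gene (chromosome 1, bases 12283862 to 12285306), and the intergenic locus XLOC_016076 (chromosome 3, bases 18843645 to 18844448) were listed at 0 in all Col-0 and apc8-1 libraries. In nrpe1-12 AT1G33840 had 6.11 and 6.78 FPKM and XLOC_016076 had 11.5 and 7.76. The reverse pattern, below 0.5 in nrpe1-12 and at or above 1 in Col-0, was found in 87 loci, of which 79 were protein-coding, 3 intergenic and 1 a transposable element gene. In 54 of the 87 both apc8-1 libraries were below 0.5 FPKM too.

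Of 209 tested noncoding RNA genes 27 were higher (12.9%) and 19 lower (9.09%), beside 13.8% and 13.1% of all loci, with a median log2 fold change of 0.04. After rescaling without organelle and ribosomal RNA genes 21 of 211 were higher and 32 lower, with a median of -0.06. AT4G04223 (chromosome 4, bases 2036511 to 2037816) had 10.99 and 8.32 FPKM in Col-0 against 50.4 and 52.9 in nrpe1-12 and rose in both libraries (log2 fold change 2.32, SE 0.15, adjusted p = 4.07e-05). AT1G26558 went from 0.145 and 0.246 to 2.23 and 1.87 FPKM. AT1G58590 had 1.57 and 2.90 FPKM in Col-0 against 0.316 and 0.345 in nrpe1-12, and AT5G07322 had 5.98 and 6.82 FPKM in Col-0 against 1.62 and 2.64 in nrpe1-12. The latter fell (adjusted p = 0.00115), and the former reached 1 FPKM only in Col-0. The unannotated locus antisense to the element gene AT4G08020, which shares its coordinates with AT4G08013, had 1.74 and 0.9752 FPKM in Col-0 against 33.0 and 43.2 in nrpe1-12. No source used here states the counting strand, so reads of an antisense locus and its partner cannot be told apart.

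Genes of the rapid response to wounding and touch were higher in nrpe1-12. Of 16 tested, 14 were called higher and none lower, with a median log2 fold change of 0.71 against -0.01 over all loci. The list was also higher in apc8-1, with a median of 0.51 against Col-0. Between the mutants 12 of the 16 were higher in nrpe1-12 and none lower. TCH4, a cell wall enzyme gene induced by touch, had 25.7 and 24.3 FPKM in Col-0 against 229.5 and 242 in nrpe1-12. Both nrpe1-12 libraries were far above Col-0 (log2 fold change 3.19, SE 0.06, adjusted p = 4.22e-07), and apc8-1 had 186 and 198 FPKM. ERF104, an ethylene response factor, had 46.7 and 52.6 FPKM in Col-0 against 158 and 174 in nrpe1-12 (log2 fold change 1.72, SE 0.08, adjusted p = 1.14e-05). SZF1, a zinc finger gene, had 15.9 and 16.7 FPKM in Col-0 against 47.1 and 48.4 in nrpe1-12 (log2 fold change 1.496, SE 0.07, adjusted p = 1.03e-05), and WRKY33, a transcription factor of defence, had 87.1 and 87.2 FPKM in Col-0 against 146 and 151 in nrpe1-12 (log2 fold change 0.76, SE 0.06, adjusted p = 6.98e-05). The groups did not overlap in any of these genes, which also held for 64.6% of all tested loci. WRKY53 and CML37 were the 2 members not called (adjusted p = 0.711 and 0.765).

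Jasmonate is the hormone of wounding and insect defence; JAZ proteins repress its targets and are themselves induced by it. The JAZ list had 8 of 12 genes higher and none lower (median 0.51), or 6 of the 10 that reached 1 FPKM in both genotypes (median 0.44). JAZ9 had 28.6 and 27.8 FPKM in Col-0 against 93.1 and 103 in nrpe1-12 (log2 fold change 1.76, SE 0.07, adjusted p = 4.81e-06), and JAZ7, which reached 1 FPKM only in nrpe1-12, had 0.929 and 0.935 FPKM in Col-0 against 5.93 and 5.75 in nrpe1-12. Among 10 tested outputs of jasmonate and ethylene 6 were higher and 1 lower. VSP2, which encodes a storage protein with a role against insects, had 5.87 and 6.73 FPKM in Col-0 against 62.7 and 64.1 in nrpe1-12, and the defensin gene PDF1.2 had 4.70 and 4.70 FPKM in Col-0 against 25.3 and 25.3 in nrpe1-12. VSP2 had 4.34 and 4.79 FPKM in apc8-1 and PDF1.2 had 2.61 and 1.48, so nrpe1-12 stood above both other genotypes. Their log2 fold changes against Col-0 were 3.14 and 2.21 (adjusted p = 1.28e-06 and 7.41e-05). The defensin paralog PDF1.3 rose from 4.29 and 2.90 to 14.1 and 14.2 FPKM, and fragments of these paralogs may be split between them. ERF1, a regulator of the ethylene branch, was the member called lower, at 9.32 and 6.65 FPKM in Col-0 against 4.37 and 2.83 in nrpe1-12; 3 of 15 alternatives lost the call. Of 10 tested genes of jasmonate biosynthesis 3 were higher and 1 lower, beside 13.8% and 13.1% of all loci. After rescaling without organelle and ribosomal RNA genes 1 of the 10 was higher and 2 lower. LOX2, a chloroplast lipoxygenase, had 116 and 118 FPKM in Col-0 against 161 and 154 in nrpe1-12 (log2 fold change 0.43, SE 0.07, adjusted p = 0.00387). The calls of AOS, OPCL1 and AOC2, the other 3 genes called, were lost in 9, 6 and 6 of 15 alternatives.

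**Figure D3:**
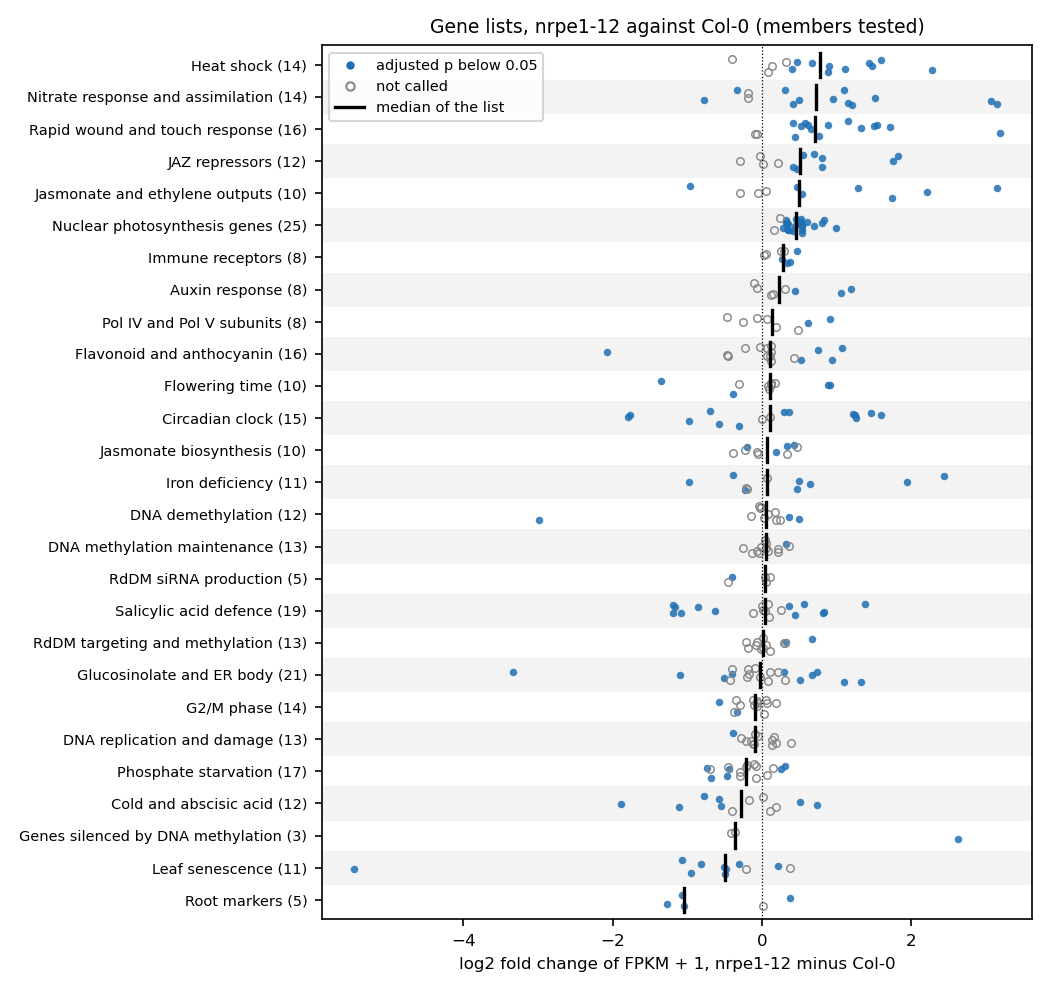
Change of each tested member of 27 gene lists in nrpe1-12 against Col-0, as the log2 fold change of FPKM + 1 on the x axis, with the number of tested members in parentheses. Filled points passed the test, open points did not, and the bar is the median of the list; the medians run from 0.78 for heat shock genes to -1.04 for root markers, of which 2 of 5 reached 1 FPKM only in Col-0.

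Heat shock genes were higher in nrpe1-12 although no heat treatment is recorded. Of 14 tested, 10 were called higher and none lower, with a median of 0.78, or 9 of the 13 that reached 1 FPKM in both genotypes (median 0.67). HSP101, the disaggregating chaperone, had 2.72 and 2.71 FPKM in Col-0 against 9.27 and 9.30 in nrpe1-12 (log2 fold change 1.47, SE 0.11, adjusted p = 7.01e-05). The small chaperone gene HSP17.6A had 2.199 and 2.09 FPKM in Col-0 against 12.9 and 15.7 in nrpe1-12 (log2 fold change 2.28, SE 0.14, adjusted p = 3.53e-05). HSFA2, a heat-induced transcription factor gene, had 0.911 and 1.16 FPKM in Col-0 against 4.63 and 4.33 in nrpe1-12 (log2 fold change 1.43, SE 0.15, adjusted p = 3.17e-04), and the coactivator gene MBF1C had 52.4 and 45.1 FPKM in Col-0 against 93.3 and 121 in nrpe1-12. In these 4 genes the nrpe1-12 libraries lay above all Col-0 and apc8-1 libraries. HSP21 and HSP23.6-MITO, small chaperone genes of chloroplasts and mitochondria, stayed at or below 0.155 FPKM in all 6 libraries. After rescaling without organelle and ribosomal RNA genes 9 of the 14 were higher and 1 lower.

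Salicylic acid defence genes went both ways, with 6 of 19 higher and 6 lower, or 6 and 5 of the 18 that reached 1 FPKM in both genotypes. Over all loci 13.8% were higher and 13.1% lower. PR1, the standard marker of this pathway, had 69.0 and 68.8 FPKM in Col-0 against 119 and 126 in nrpe1-12 (log2 fold change 0.82, SE 0.06, adjusted p = 5.08e-05), and WRKY70, a regulator of the balance of salicylic acid and jasmonate signalling, had 26.7 and 32.4 FPKM in Col-0 against 79.4 and 77.2 in nrpe1-12 (log2 fold change 1.38, SE 0.09, adjusted p = 3.89e-05). PBS3, which acts in the synthesis of salicylic acid, fell from 9.47 and 8.48 to 3.53 and 3.84 FPKM (log2 fold change -1.09, SE 0.12, adjusted p = 3.69e-04). PAD3, the last enzyme of camalexin synthesis, fell from 7.43 and 8.44 to 2.78 and 3.05 FPKM (log2 fold change -1.19, SE 0.13, adjusted p = 3.44e-04). None of these 4 overlapped between the groups, which also held for 64.6% of all tested loci. Of 8 tested immune receptor genes 4 were higher and none lower, by at most 0.48 on the log2 scale, each of the 4 calls was lost in 1 or more alternatives, and 1 remained after rescaling without organelle and ribosomal RNA genes.

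Clock genes changed in both directions. The circadian oscillator couples genes expressed in the morning, such as CCA1 and LHY, with genes expressed later in the day, such as TOC1, GI and LUX, that repress or are repressed by them. Of 15 tested genes 7 were higher and 6 lower, or 7 and 5 of the 14 that reached 1 FPKM in both genotypes. CCA1 had 16.8 and 16.7 FPKM in Col-0 against 48.6 and 47.4 in nrpe1-12 (log2 fold change 1.47, SE 0.07, adjusted p = 8.53e-06), LHY had 8.38 and 8.63 FPKM in Col-0 against 21.6 and 22.0 in nrpe1-12 (log2 fold change 1.26, SE 0.08, adjusted p = 3.81e-05), and RVE1, a related MYB factor, had 13.3 and 13.6 FPKM in Col-0 against 41.4 and 43.7 in nrpe1-12 (log2 fold change 1.59, SE 0.07, adjusted p = 8.07e-06). RVE8 and LNK2, which act together as activators, rose too (log2 fold changes 1.23 and 1.25). In the other direction, PRR5, a repressor of CCA1, had 14.8 and 15.5 FPKM in Col-0 against 4.29 and 3.101 in nrpe1-12 (log2 fold change -1.79, SE 0.13, adjusted p = 6.34e-05). FKF1, a blue light receptor that reached 1 FPKM only in Col-0, had 4.09 and 3.61 FPKM in Col-0 against 0.505 and 0.341 in nrpe1-12, and LUX, a component of the evening complex, had 8.91 and 9.75 FPKM in Col-0 against 4.30 and 4.17 in nrpe1-12 (log2 fold change -0.98, SE 0.10, adjusted p = 3.21e-04). TOC1 and GI fell as well (log2 fold changes -0.57 and -0.70). None of these 10 genes overlapped between nrpe1-12 and Col-0, which also held for 64.6% of all tested loci. No source used here gives the hour of harvest, and a difference in harvest time between genotypes cannot be told apart from a difference of genotype. After rescaling without organelle and ribosomal RNA genes 5 were higher and 6 lower.

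**Figure D4:**
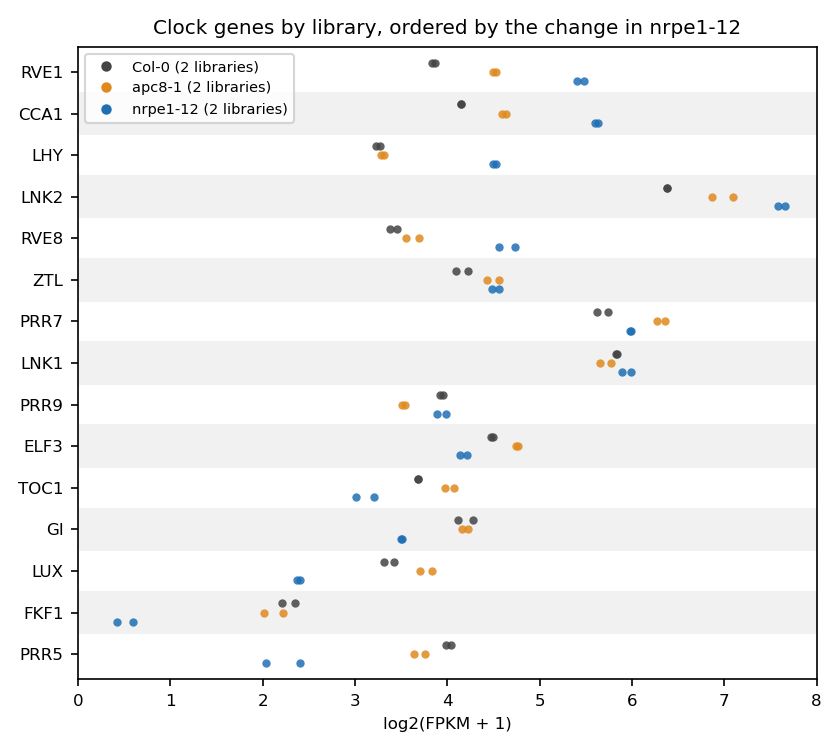
Level of 15 tested clock genes in each library, as log2(FPKM + 1) on the x axis, ordered from the largest increase (RVE1) to the largest decrease (PRR5) in nrpe1-12 against Col-0. Each point is 1 library, and the nrpe1-12 points lie to the right of all others in the upper 5 genes and to the left of all others in the lower 6.

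Nuclear photosynthesis genes were modestly higher in nrpe1-12. Of 25 tested, 23 were called higher and none lower, with a median of 0.46. The change was shared with apc8-1, where the median against Col-0 was 0.45. RCA, the activase of Rubisco, had 1031 and 1135 FPKM in Col-0 against 2173 and 2133 in nrpe1-12 (log2 fold change 0.99, SE 0.07, adjusted p = 6.34e-05), and GAPA, a Calvin cycle enzyme gene, had 309 and 317 FPKM in Col-0 against 568 and 543 in nrpe1-12 (log2 fold change 0.83, SE 0.06, adjusted p = 4.63e-05). The light-harvesting gene LHCB3 had 835 and 868 FPKM in Col-0 against 1248 and 1196 in nrpe1-12 (log2 fold change 0.52, SE 0.06, adjusted p = 5.36e-04). The groups did not overlap in these genes, which also held for 64.6% of all tested loci. RBCS1A had 10092 and 9870.1 FPKM in Col-0 against 15693 and 14809 in nrpe1-12, but the split of fragments between the RBCS paralogs is uncertain. Of the 57 tested chloroplast genes 48 were higher and none lower, with a median of 0.48, and the part of this higher chloroplast share of all FPKM in the other results was not tested. The count of nuclear genes called higher was 15 without either Col-0 library and 9 after quantile normalization, where the median of the list was 0.11.

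Of 11 root marker genes 5 were tested, with 3 lower and 1 higher. EXPA18 and CASP1, lower in nrpe1-12, reached 1 FPKM only in Col-0, and without them 1 of 3 was lower and 1 higher, with a median of 0.01. EXPA18, a root hair expansin, had 1.68 and 1.53 FPKM in Col-0 against 0.0767 and 0.0925 in nrpe1-12, and NRT2.1, a nitrate transporter of roots, had 9.61 and 10.3 FPKM in Col-0 against 3.63 and 5.13 in nrpe1-12 (log2 fold change -1.04, SE 0.17, adjusted p = 0.00288). Both were lower in both nrpe1-12 libraries. They were low in apc8-1 too, EXPA18 at 0.0805 and 0 FPKM and NRT2.1 at 0.112 and 0.329. The median of the 5 tested markers was -1.04 in nrpe1-12 and -0.96 in apc8-1, each against Col-0. Between the mutants 1 of the 5 was called higher in nrpe1-12 and none lower. CASP1, of the Casparian strip, had 1.41 and 2.67 FPKM in Col-0 against 0.284 and 0.571 in nrpe1-12 and lost its call without Col-0 replicate 2 or nrpe1-12 library a. SCR, which patterns the root but is also transcribed in shoots, had 5.35 and 5.14 FPKM in Col-0 against 6.76 and 7.52 in nrpe1-12 and was the marker called higher. SHR, its upstream regulator, had 9.91 and 9.02 FPKM in Col-0 against 8.83 and 10.3 in nrpe1-12 and was not called. Among loci outside the lists, chosen after their values were seen, the root hair gene RHS19 had 9.16 and 10.05 FPKM in Col-0 against 1.26 and 1.01 in nrpe1-12. RHS13, also of root hairs, had 5.81 and 4.30 FPKM in Col-0 against 0.456 and 0.551 in nrpe1-12 and reached 1 FPKM only in Col-0, while RHS19 fell (adjusted p = 2.96e-05). In apc8-1 RHS19 had 0.189 and 0.124 FPKM and RHS13 had 0 and 0.118. In RNA of whole seedlings fewer cells of a type and less RNA per cell cannot be told apart, and the part of root or leaf content in the changes described here was not tested.

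Leaf senescence genes were lower. Of 11 tested, 8 were lower and 1 higher, with a median of -0.49, or 7 and 1 of the 10 that reached 1 FPKM in both genotypes (median -0.48). The median of the list in apc8-1 against Col-0 was -0.90. Between the mutants 6 of the 11 were higher in nrpe1-12 and 1 lower. SAG12, a cysteine protease gene that marks late senescence, had 75.3 and 75.6 FPKM in Col-0 against 0.638 and 0.838 in nrpe1-12, and its log2 fold change of -5.46 (SE 0.12) was the lowest of all called loci without overlap. It reached 1 FPKM only in Col-0. In apc8-1 it was at 0.0609 and 0 FPKM. NYC1, which starts the breakdown of chlorophyll b, had 125 and 131 FPKM in Col-0 against 73.3 and 71.7 in nrpe1-12 (log2 fold change -0.81, SE 0.06, adjusted p = 5.23e-05). WRKY75, a regulator of senescence, had 22.9 and 18.1 FPKM in Col-0 against 8.74 and 9.62 in nrpe1-12 (log2 fold change -1.07, SE 0.14, adjusted p = 8.25e-04), and NAP, a NAC transcription factor gene, had 192 and 197 FPKM in Col-0 against 131 and 141 in nrpe1-12 (log2 fold change -0.51, SE 0.06, adjusted p = 5.94e-04). In each of these 3 genes both nrpe1-12 libraries were below both Col-0 libraries, which also held for 33.2% of all tested loci. SEN1, a gene induced by darkness, was the member called higher, at 456 and 435 FPKM in Col-0 against 512 and 524 in nrpe1-12; 7 of 15 alternatives lost the call.

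Genes of the nitrogen response were higher. Of 14 tested, 10 were called higher and 2 lower, with a median of 0.72. The change was shared with apc8-1, where the median against Col-0 was 0.79. Between the mutants 3 of the 14 were higher in nrpe1-12, 4 lower and 7 not called, with a median difference of 0.09. BT2, a BTB and TAZ domain gene that represses nitrate uptake, had 4.99 and 4.21 FPKM in Col-0 against 47.4 and 49.4 in nrpe1-12 (log2 fold change 3.15, SE 0.08, adjusted p = 1.02e-06). Its relative BT1 had 3.85 and 4.60 FPKM in Col-0 against 43.7 and 41.8 in nrpe1-12 (log2 fold change 3.07, adjusted p = 1.22e-06). Both rose from low levels in Col-0. LBD37, a repressor of the nitrogen response, had 63.9 and 65.8 FPKM in Col-0 against 130.3 and 123 in nrpe1-12, and its relative LBD39 rose from 8.36 and 5.27 to 22.5 and 19.2 FPKM. ASN1, asparagine synthetase, had 58.3 and 59.0 FPKM in Col-0 against 141 and 132 in nrpe1-12 (log2 fold change 1.205, SE 0.07, adjusted p = 2.75e-05). NRT1.1, the nitrate transporter and sensor, fell from 68.3 and 69.4 to 40.3 and 39.5 FPKM (log2 fold change -0.77, SE 0.07, adjusted p = 1.69e-04). None of these 6 overlapped between the groups, which also held for 64.6% of all tested loci.

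Other nutrient and stress lists were mixed, beside 13.8% of all loci called higher and 13.1% lower. Of 17 phosphate starvation genes 2 were higher and 4 lower, with a median of -0.22, and after rescaling without organelle and ribosomal RNA genes none was higher and 7 lower. PHO2, an enzyme that limits phosphate transport, fell from 25.4 and 25.5 to 14.5 and 16.4 FPKM, and the acid phosphatase gene PAP17 from 30.7 and 30.8 to 18.0 and 18.3 FPKM (adjusted p = 5.93e-04 and 7.29e-04). Of 11 tested iron genes 5 were higher and 3 lower, or 3 and 3 of the 9 that reached 1 FPKM in both genotypes. The ferritin gene FER3 fell from 16.1 and 14.5 to 8.39 and 6.32 FPKM, while BTS, a ubiquitin ligase that restrains iron uptake, rose from 12.6 and 12.3 to 17.9 and 18.0 FPKM (adjusted p = 0.00153 and 0.00184). Of 12 cold and abscisic acid genes 2 were higher and 5 lower. The dehydrin gene LTI30 had 30.6 and 23.0 FPKM in Col-0 against 5.50 and 7.56 in nrpe1-12 (log2 fold change -1.88, SE 0.17, adjusted p = 1.56e-04) and RD29A, a gene induced by cold and drought, had 11.2 and 12.4 FPKM in Col-0 against 5.19 and 4.66 in nrpe1-12 (log2 fold change -1.11, SE 0.11, adjusted p = 2.97e-04), whereas RAB18, another dehydrin gene, rose to 45.7 and 48.1 FPKM from 32.5 and 32.8 and RD20, a caleosin gene, to 29.5 and 27.5 from 15.8 and 17.7.

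Secondary metabolism changed gene by gene, where 13.8% of all loci were called higher and 13.1% lower. Among 21 genes of glucosinolates and ER bodies 6 were higher and 4 lower, or 5 and 3 of the 19 that reached 1 FPKM in both genotypes. After rescaling without organelle and ribosomal RNA genes 6 were higher and 8 lower. TGG2, a myrosinase that cleaves glucosinolates, had 53.9 and 53.9 FPKM in Col-0 against 117 and 117 in nrpe1-12 (log2 fold change 1.103, SE 0.06, adjusted p = 1.34e-05), and BGLU18, a glucosidase of ER bodies in leaves, rose from 22.9 and 24.2 to 40.7 and 39.2 FPKM. The related genes BGLU21 and PYK10, known from ER bodies of roots, fell, BGLU21, which reached 1 FPKM only in Col-0, from 16.6 and 15.6 to 0.908 and 0.522 FPKM and PYK10 from 683 and 659 to 486 and 529 FPKM (log2 fold change -0.40, SE 0.07, adjusted p = 0.00459). Among 16 tested flavonoid and anthocyanin genes 4 were higher and 1 lower, or 4 and 3 after the same rescaling. DFR, an enzyme of anthocyanin synthesis, had 10.9 and 10.1 FPKM in Col-0 against 20.8 and 21.3 in nrpe1-12 (log2 fold change 0.94, SE 0.10, adjusted p = 3.21e-04), and F3H, flavanone 3-hydroxylase, had 2.93 and 2.51 FPKM in Col-0 against 6.53 and 7.13 in nrpe1-12. The MYB regulator MYB90 fell from 34.5 and 31.8 to 7.91 and 6.33 FPKM (log2 fold change -2.08, SE 0.13, adjusted p = 2.87e-05), but its paralog PAP1 had 17.3 and 14.96 FPKM in Col-0 against 16.4 and 17.64 in nrpe1-12 and was not called (adjusted p = 0.712).

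Growth and phase genes were counted by list, beside 26.9% of all loci called. These lists are short, so their shares are not read as above or below that value. Of 14 tested G2/M genes 2 were lower and none higher, or 4 and none after the same rescaling, and of 13 genes of DNA replication and damage 1 was lower and none higher. PLE, a microtubule crosslinker of cytokinesis, had 5.50 and 6.15 FPKM in Col-0 against 3.46 and 3.72 in nrpe1-12 (log2 fold change -0.57, SE 0.11, adjusted p = 0.00646), a call lost without Col-0 replicate 2 (adjusted p = 0.0561). Of 10 tested flowering genes 2 were higher and 2 lower, or 1 and 2 of the 9 that reached 1 FPKM in both genotypes. SOC1, a MADS-box gene that promotes flowering, rose from 14.0 and 16.4 to 29.2 and 28.5 FPKM, and FUL, with a like role, had 0.471 and 0.629 FPKM in Col-0 against 1.88 and 1.94 in nrpe1-12, reaching 1 FPKM only in nrpe1-12. MAF5, a relative of the floral repressor FLC, fell from 8.66 and 9.32 to 3.32 and 2.57 FPKM (log2 fold change -1.35, SE 0.18, adjusted p = 9.37e-04), while FLC had 2.73 and 2.99 FPKM in Col-0 against 3.57 and 2.87 in nrpe1-12 (adjusted p = 0.672). Of 8 tested auxin response genes 3 were higher and none lower, among them IAA3, a repressor of auxin signalling, at 7.96 and 8.93 FPKM in Col-0 against 22.0 and 19.4 in nrpe1-12 (adjusted p = 1.06e-04). IAA14, a repressor of the same family, had 4.78 and 3.70 FPKM in Col-0 against 9.04 and 10.7 in nrpe1-12 (adjusted p = 9.76e-04).

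Among protein-coding genes outside the lists, several stood out in both nrpe1-12 libraries against all others. KELP, a transcriptional coactivator gene chosen after its values were seen, had 43.5 and 47.9 FPKM in Col-0 against 223 and 231 in nrpe1-12 and 51.9 and 51.3 in apc8-1 (log2 fold change 2.29, SE 0.06, adjusted p = 1.22e-06). PCC1, also chosen in this way and known as a gene under control of pathogens and the clock, had 12.5 and 16.8 FPKM in Col-0 against 93.4 and 84.5 in nrpe1-12 (log2 fold change 2.53, SE 0.15, adjusted p = 2.75e-05). AT2G33175, a gene of unknown function, was listed at 0 in Col-0 and had 10.2 and 10.3 FPKM in nrpe1-12. In the other direction AT1G62770, a pectin methylesterase inhibitor family gene, fell from 57.8 and 65.6 to 8.62 and 6.83 FPKM with 43.4 and 52.2 in apc8-1 (log2 fold change -2.85, SE 0.13, adjusted p = 8.07e-06). AT4G35720, of unknown function, fell from 14.6 and 12.0 to 1.41 and 1.18 FPKM with 8.93 and 8.32 in apc8-1. For AT5G02580, AT5G04120 and CEP2, also among the 15 largest decreases, both mutants were low: AT5G02580 had 12.7 and 12.5 FPKM in Col-0 against 0.819 and 0.704 in nrpe1-12, and 0.321 and 0.498 in apc8-1.

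Set directly against apc8-1, nrpe1-12 was higher in 2052 loci (11.7%) and lower in 1275 (7.27%), together 19.0% of the loci tested. Col-0 enters this contrast through the shared spread and through the choice of loci, since a locus at 1 FPKM in apc8-1 alone was not tested. Phosphate starvation genes had the largest median difference of the 27 lists: 16 of 17 were higher in nrpe1-12 than in apc8-1 and 1 lower, with a median difference of 1.53. SPX3, a sensor protein gene, had 16.7 and 17.0 FPKM in Col-0 against 13.4 and 11.03 in nrpe1-12 and 0.814 and 0.713 in apc8-1, and PS2, a phosphatase gene, had 81.2 and 82.8 FPKM in Col-0 against 80.0 and 75.0 in nrpe1-12 and 4.36 and 4.47 in apc8-1. In both genes apc8-1 was far below the other 4 libraries, and against Col-0 SPX3 was lower in nrpe1-12 (adjusted p = 0.0257) and PS2 was not called (adjusted p = 0.426). The direct differences were large (nrpe1-12 minus apc8-1 2.90 and 3.86, adjusted p = 5.47e-06 and 1.45e-07). Heat shock genes were higher than in apc8-1 in 11 of 14 (median 1.25) and flavonoid genes in 13 of 16 (median 1.23), with none lower in either list. Without nrpe1-12 library a 1963 loci were called in this contrast in place of 3327, and without library b 1749.

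**Figure D5:**
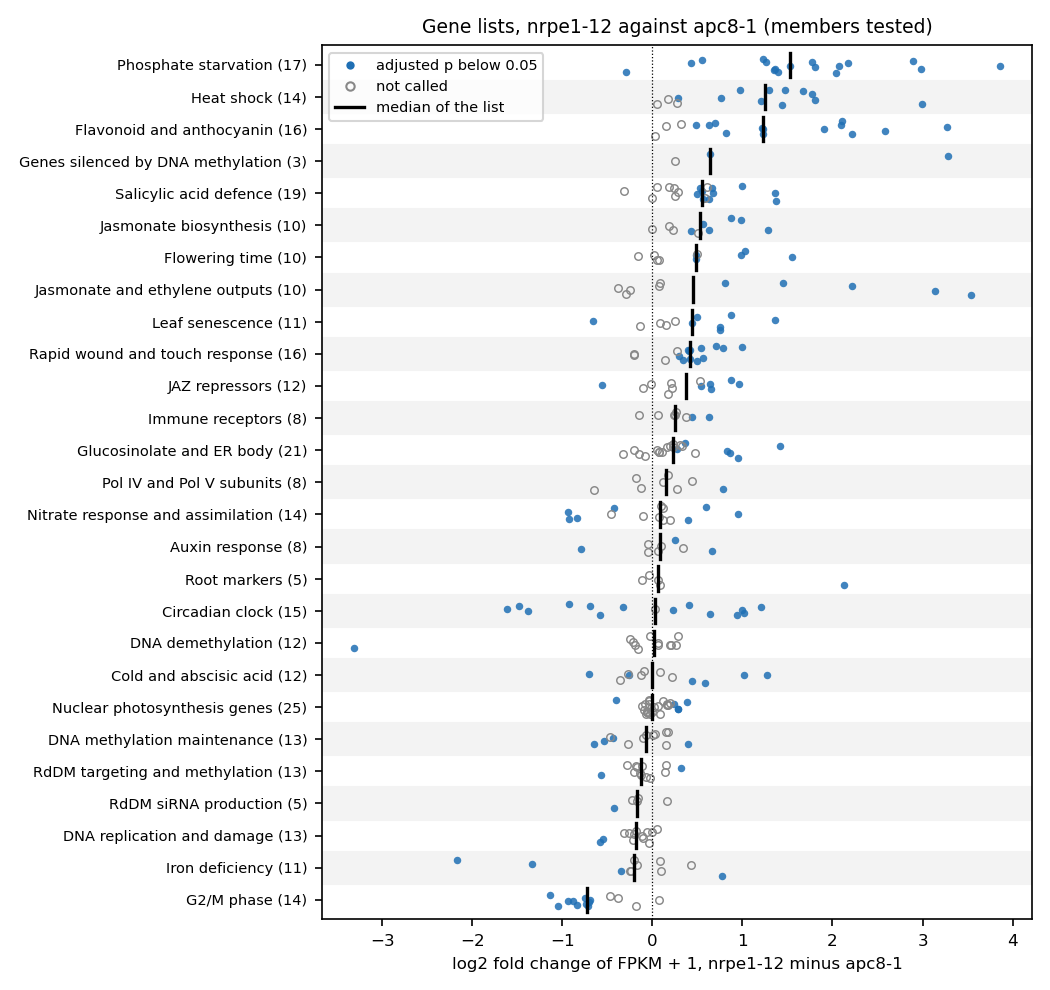
Difference of each tested member of the same 27 gene lists between nrpe1-12 and apc8-1, as the log2 fold change of FPKM + 1 on the x axis, with the number of tested members in parentheses. Filled points passed the test, open points did not, and the bar is the median of the list, which runs from 1.53 for phosphate starvation genes to -0.72 for G2/M genes.

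G2/M genes were lower in nrpe1-12 than in apc8-1 in 10 of 14, with none higher and a median of -0.72. CDC20.1, an activator of the anaphase promoting complex, had 5.65 and 5.63 FPKM in Col-0 against 5.45 and 5.24 in nrpe1-12 and 12.5 and 13.5 in apc8-1 (-1.14, adjusted p = 1.86e-04), and its fragments may be shared with the paralog CDC20.2. Clock genes differed in both directions, 7 higher and 7 lower of 15. In photosynthesis genes 20 of 25 were not called between the mutants, beside 14215 of all 17542 loci. Of the others 4 were higher and 1 lower in nrpe1-12, and the median difference of the list was -0.01. Of the transposable element genes 11 of 80 were higher than in apc8-1 and 3 lower, and of the intergenic loci 30 of 92 were higher and 4 lower. Over all loci these shares were 11.7% and 7.27%. However, 9 of the 80 and 18 of the 92 reached 1 FPKM in nrpe1-12 and not in Col-0. Loci at 1 FPKM in apc8-1 alone were not tested, so the choice of loci favours those high in nrpe1-12.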

How the data were processed

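RNA of 2 libraries each of Col-0, nrpe1-12 and apc8-1 seedlings was analysed. The deposited table holds the authors' FPKM per locus and library. Per the submitters' processing notes, TopHat2 2.0.13, Cufflinks 2.2.1, Cuffnorm 2.2.1 and TAIR10 were used. Fragment totals and counting strand are not given in the sources used here. Fragments per kilobase at 1 FPKM were estimated from steps between low values, 99.6 to 100% of them within 0.15 of whole fragments. Coordinates are the authors' deposited positions, and gene names came from RefSeq (TAIR10.1), which matched 31393 of 32069 gene IDs (97.9%). Both nrpe1-12 columns share a name and are called library a and b in table order.

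Here log2(FPKM + 1) was fitted in R 4.3.3 with limma 3.58.1 (lmFit, eBayes with trend) in 1 fit of all 6 libraries (3 residual degrees of freedom; median SE 0.12). The sources do not say whether duplicates came from separate cultures, and p-values may thus reflect technical spread alone; a two-sided exact permutation test of 2 against 2 cannot go below p = 0.333. Loci were named by rule: the 15 largest called increases and decreases without overlap, 6 fixed genes, up to 4 members with the smallest p of each of 27 lists (394 genes), and up to 8 transposable element and 5 other noncoding loci a class. The members and lists were chosen with earlier results of these data known, and further members and neighbouring loci were named after their values had been seen. Loci with withheld annotation are not reported here, and promoter sequences were not analysed here. The alternatives were 2 pseudocounts, 2 filters, the 4 libraries alone, 3 scalings, no trend and leaving out each library, those of apc8-1 chosen after seeing the data.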

Additional observations from a re-analysis of the deposited data

Results flagged for a closer look

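Of the loci named by rule, 12 were called against Col-0 in opposite directions in nrpe1-12 and apc8-1 and also differed between the mutants in the direct contrast, which is what singled them out. Both changes against Col-0 share the Col-0 libraries, so the values that follow are the difference of nrpe1-12 and apc8-1, in which Col-0 cancels. The transposable element gene AT2G04460 (chromosome 2, bases 1547508 to 1549265) had 15.5 and 17.0 FPKM in Col-0 against 38.6 and 35.0 in nrpe1-12. In apc8-1 it had 0.633 and 1.02 FPKM, and the difference was 4.38. The other 7 of the 8 transposable element genes with the largest changes were at or below 0.862 FPKM in both Col-0 libraries.

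The difference was 3.53 for VSP2, 3.14 for PDF1.2, 1.28 for LOX2 and 0.98 for AOS, an enzyme of jasmonate synthesis at 62.2 and 59.7 FPKM in Col-0 against 70.3 and 69.1 in nrpe1-12 and 35.1 and 34.4 in apc8-1. The flavonoid genes DFR and CHS had differences of 3.27 and 2.22; CHS, the first enzyme of the pathway, had 14.0 and 12.9 FPKM in Col-0 against 24.5 and 22.3 in nrpe1-12 and 3.96 and 4.55 in apc8-1. The small chaperone gene HSP17.6A had a difference of 2.99 and the caleosin gene RD20 one of 1.28. SQD2, an enzyme of sulfolipid synthesis that rises in phosphate shortage, had 52.4 and 53.3 FPKM in Col-0 against 64.8 and 61.5 in nrpe1-12 and 24.0 and 22.8 in apc8-1, a difference of 1.39. The immune receptor gene AT1G58602 had a difference of 0.63. KN, a syntaxin of cytokinesis, was the member that differed in the negative direction, at -1.05, with 13.4 and 13.5 FPKM in Col-0 against 9.81 and 11.1 in nrpe1-12 and 23.8 and 21.7 in apc8-1. The calls of AOS, SQD2, AT1G58602 and KN against Col-0 were lost in 9, 5, 6 and 4 of the 15 alternatives. The causes of these differences were not tested.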

How the results depend on the processing

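Of 130 named loci that were called, 104 were called in all 15 alternatives and 26 lost the call in 1 or more, each of them when a Col-0 or nrpe1-12 library was left out; none of the 130 turned its direction. With 1 library left out, the lone library of its genotype is assumed to vary like the other groups. Loci changed then numbered 2867 to 4880 against 4711 with all libraries, with 1558 to 2493 higher and 1304 to 2387 lower. The upper ends came from leaving out an apc8-1 library, an alternative chosen after seeing the data, and without a Col-0 or nrpe1-12 library the highest number was 3186. In the same fits 9 to 21 pseudogenes, 11 to 17 transposable element genes and 15 to 23 photosynthesis genes were higher, and 1749 to 2833 loci changed against apc8-1 in place of 3327. After rescaling without organelle and ribosomal RNA genes 3762 loci were lower, 12 pseudogenes were higher, and increases made up 31.2% of calls, not 51.3%; the clock list's median was then -0.01. Loci at least 2-fold lower numbered 556 with a pseudocount of 0.1 and 215 with a filter of 5 FPKM. That filter tests fewer loci and left 9 transposable element genes, 9 intergenic loci and 10 pseudogenes higher and 1 root marker lower, and without a filter, where more loci are tested, 5 root markers were lower. After quantile normalization 9 photosynthesis genes were higher. The causes of the shifts under other scalings were not tested. No paired analysis was possible because the nrpe1-12 columns carry no replicate number. Depth limits the loci below 1 FPKM, which stood for at most 19.1 fragments per kilobase.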
